A study of Homo sapiens with 9 samples.

Results

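The QKI-5 binding peaks that lie on small noncoding RNA genes were examined by RNA family. A peak was counted when it shared at least 10 nt, on the same strand, with a gene annotated as snRNA, snoRNA, scaRNA, misc_RNA, miRNA, rRNA, rRNA pseudogene or vault RNA. The rule selected 59 of the 24019 peaks on nuclear chromosomes (0.246%, 95% Wilson interval 0.19 to 0.317%, and so for the ranges given after shares below), on 56 of 8994 annotated gene entries. QKI-5 is the isoform of the RNA-binding protein Quaking that is kept in the nucleus, and it was crosslinked to RNA with 600 mJ/cm2 of ultraviolet light and immunoprecipitated with 1 antibody (HITS-CLIP). The experiment was done in mesHMLE cells, which come from the human mammary epithelial line HMLE through at least 14 days with TGF-β1 at 2.5 ng/ml and then kept without added TGF-β1. The 7 immunoprecipitation libraries were 3 cut at the size of the QKI-5 monomer, 3 at the size of the dimer and 1 dimer library made with SuperScript IV, and 2 size-matched inputs served as background. All groups share the cell line, the treatment and the crosslink, and neither a sample without crosslink nor one without QKI is among those used here.

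The peak list was made from the 7 libraries pooled, so each peak has 1 height, a whole number that the study calls peak height and whose scaling is not given in the sources used here, and no value per library. The labels name the libraries as technical replicates, with 3 replicate numbers. The paper pooled samples that shared antibody and biological input, so no biological replication is shown. No spread between replicates can be given for any height, and the libraries' depths are not part of the list. Intervals and tests below therefore cover counting error over peaks only, and peaks on copies of 1 RNA share a sequence and are not independent.

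U6 is the small nuclear RNA that pairs with the 5′ splice site and with U2 in the active spliceosome, and U2 is the one that recognises the branch point. 7SK holds the elongation factor P-TEFb inactive, 7SL is the RNA of the signal recognition particle, and Y RNAs bind the Ro60 protein. Each of these RNAs is made from a few functional genes and has left a large number of truncated or diverged copies across the genome. Quaking recognises the element ACTAAC or ACTAAT (in DNA letters), which resembles the branch point consensus TACTAAC. U6 carries near its 5′ end the bases ACTAAA, which differ from the Quaking element in the last letter.

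In the functional gene RNU6-1 ACTAAA occupies bases 24 to 29, counted from 1 at the 5′ end. The 2 tallest nuclear peaks lay on RNU6-48P and RNU6-1330P, which keep these bases. RNU6-23P and RNU6-49P are the 2 copies with a peak in which they are changed.

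U6 held most of the peaks. Of the 59 peaks, 37 lay on U6 copies (62.7%, 95% Wilson interval 50 to 73.9%), 9 on miRNA genes, 4 on 7SK copies, 3 on U2 copies, and 2 each on 7SL, Y RNA and 5S rRNA copies. As a share of what is annotated, 37 of 1333 U6 copies had a peak (2.78%, 2.02 to 3.8%), against 4 of 296 7SK copies (1.35%, 0.527 to 3.42%) and 3 of 580 other U snRNA copies (0.517%, 0.176 to 1.51%). The shares were lower for 7SL (2 of 860 copies, 0.233%), Y RNA (2 of 859, 0.233%), miRNA (7 of 3049, 0.23%) and rRNA (1 of 541, 0.185%). No snoRNA gene of 1458 had a peak on its strand, which allows a share of up to 0.263% (upper Wilson bound), and none of 9 vault RNA entries had one. The annotation used had no entry of type scaRNA.

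Among the functional genes, those of U6 stood out. RNU6-8 had a peak of height 1445, RNU6-7 one of 671, RNU6-1 one of 301 and RNU6-2 one of 45, while RNU6-9 had none. RNY4, the gene of the Y4 RNA, had a peak of height 62, and RNY1, RNY3 and RNY5 had none. No peak lay on RNU1-1, RNU4-1, RNU4-2, RNU5A-1, RNU5B-1, RNU7-1, RNU6ATAC or RNU4ATAC, on the 7SK gene RN7SK, on the 7SL gene RN7SL2, or on the vault RNA genes VTRNA1-1, VTRNA1-2 and VTRNA1-3. The reads had been filtered on mapping quality, and how far this removed reads from genes with similar copies was not tested. A gene without a peak is therefore not shown to be unbound. Heights on single U6 genes carry the same limit. The first 50 bases of RNU6-8, RNU6-7, RNU6-1 and RNU6-2 each had 21 exact matches in the genome, and 5 with the base before included. How far each height belongs to its own gene was not tested. RNU2-1, RNU11, RNU12 and RN7SL1 have no entry under these names and types in the annotation used, so they were not analysed here.

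**Figure D1:**
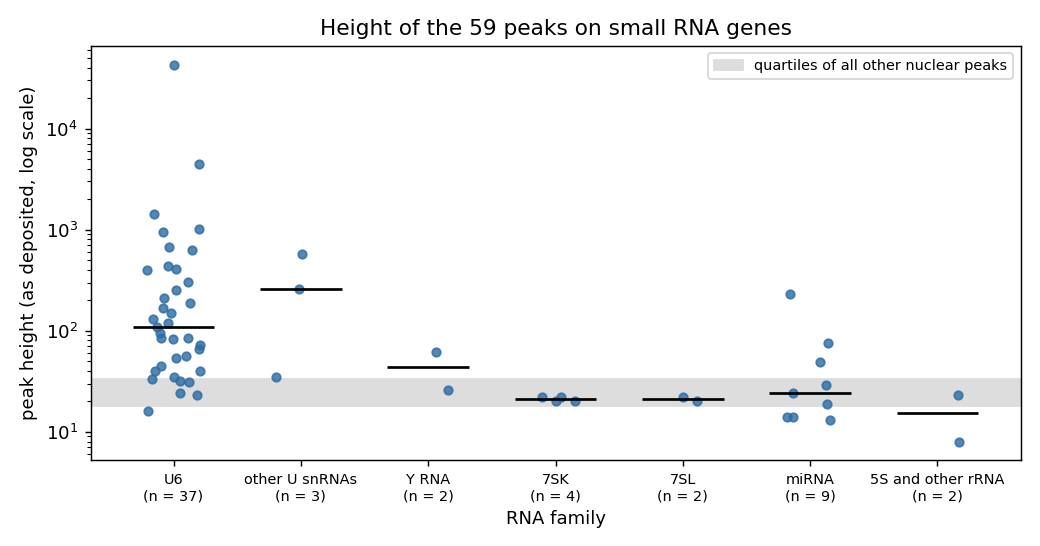
Height of each of the 59 peaks (points, peak height in the pooled libraries, log axis) by RNA family, with the family's median as a line and the quartiles of all other nuclear peaks (18 to 33) as a grey band. U6 peaks run from 16 to 42903, while the 4 peaks on 7SK and the 2 on 7SL lie inside the band.

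The peaks on U6 were tall. Their median height was 109 (quartiles 45 and 398, n = 37 peaks), compared with 22.5 (20 and 45.5, n = 22) for peaks on the other families and 23 (18 and 33, n = 23960) for all other nuclear peaks. The tallest nuclear peak lay on RNU6-48P, with a height of 42903. RNU6-1330P came second of all nuclear peaks at 4474, and the tallest nuclear peak outside the small RNA genes reached 3408. The 18 mitochondrial peaks of the list were not ranked. The U6 peaks next in height were on RNU6-8 (1445), RNU6-37P (1022) and RNU6-671P (949). Of the 100 tallest nuclear peaks 11 were on small RNA genes, and of the 1000 tallest 23. At the other end, the peak on RNU6-431P had a height of 16, so U6 copies covered the range from below the median nuclear peak to the tallest one. The U6 peaks were also narrow, with a median width of 42 nt compared with 58.5 nt on the other small RNA families and 61 nt for all other nuclear peaks.

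Every U6 peak covered the 5′ end of the RNA and its first base. The 37 peaks began between 0 and 15 nt before base 1, and 36 of them ended between bases 33 and 45 of the copy. The peak on RNU6-48P was the exception, as it ran through all 107 bases. Placed on RNU6-1 through a pairwise alignment of each copy, the summits had a median at base 16 (quartiles 10 and 20). All 37 summits were within the first 35 bases of the RNA or just before base 1 (100%, 90.6 to 100%), the one on RNU6-48P the farthest in, at base 35. The bases ACTAAA at 24 to 29 were thus inside the stretch covered, but to the 3′ side of most summits.

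**Figure D2:**
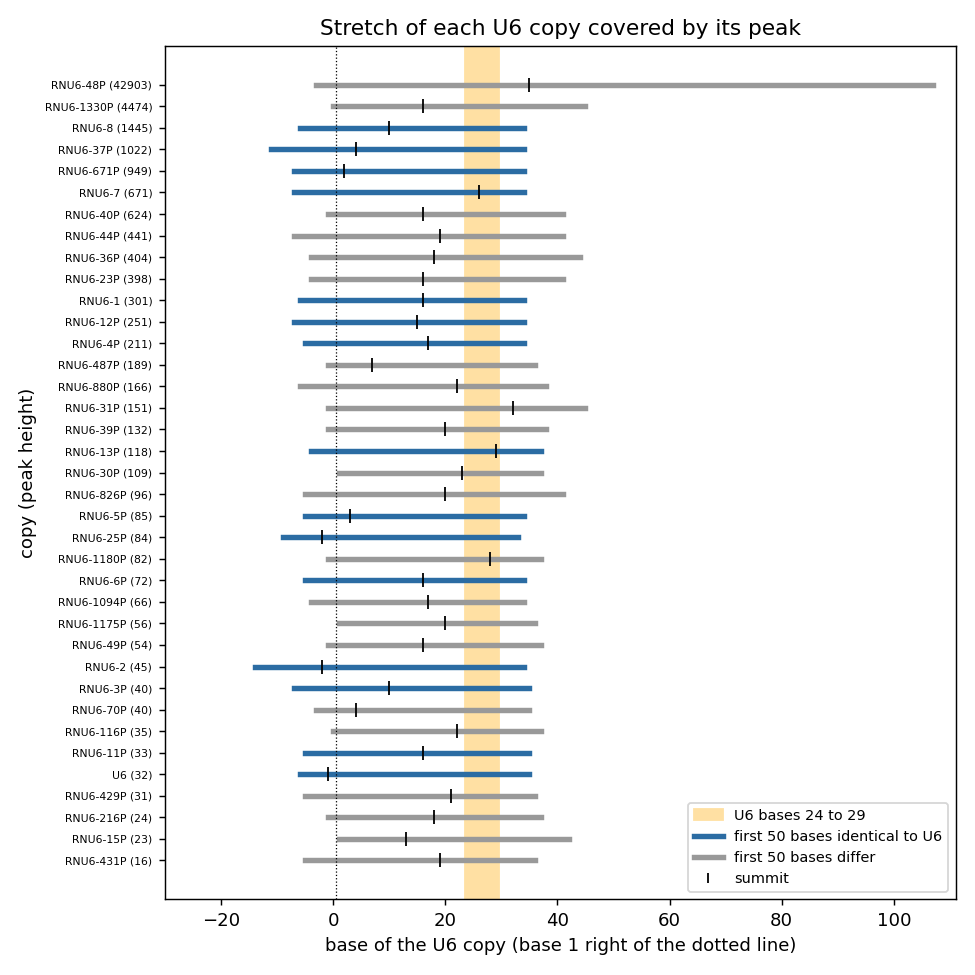
The stretch of each U6 copy covered by its peak (horizontal lines, x axis in bases of the copy), with the summit as a tick, copies ordered by height (in brackets) and bases 24 to 29 of U6 shaded. All 37 lines start within 15 nt before base 1 or at it, and only that of RNU6-48P, at the top, goes past base 45.

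The Quaking element itself was not found in these peaks. None of the 59 contained ACTAAC (0%, upper Wilson bound 6.11%), while 2415 of 23960 other nuclear peaks did (10.1%, 9.7 to 10.5%). Fisher's exact test (two-sided) gave an adjusted p = 0.00369 over 3 motifs, with an odds ratio of 0.075. With ACTAAT counted as well, the numbers were 0 of 59 and 3299 of 23960 (13.8%, 13.3 to 14.2%, Fisher's exact test, adjusted p = 0.000578). As 37 of the 59 peaks lie on copies of 1 RNA, these tests count a shared sequence repeatedly. In the stretch covered, U6 has ACTAAA in place of the element, so for these 37 peaks the outcome was set by the family. The 2 tests therefore do not show an absence of the element beyond the share of U6. Without U6, the count for both forms was 0 of 22 (upper Wilson bound 14.9%), which does not set the other families apart from the shares of 10.1% and 13.8%. ACTAAA showed the opposite. It was present in 36 of 59 peaks (61%, 48.3 to 72.4%) and in 454 of 23960 others (1.89%, 1.73 to 2.08%), an odds ratio of 80.3 (Fisher's exact test, adjusted p = 1.09e-45). This difference came from U6, where 35 of 37 peaks held ACTAAA (94.6%, 82.3 to 98.5%), and in the other families the motif was found in 1 of 22 peaks (4.55%, 0.807 to 21.8%). As U6 carries ACTAAA in the stretch covered, the outcome was set by the make-up of the 59 peaks. The test therefore adds nothing about the motif beyond that make-up. Since the motif is part of U6, the first 50 bases of the 37 copies were also compared with each other. They comprised 23 distinct sequences, all from copies of 1 RNA and so not independent, of which 21 held ACTAAA. Only the strand of the transcript was searched, and the peaks on small RNAs were narrower than the others.

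The flanks gave the same count, as no window of a peak's own length, 500 nt upstream or downstream, held ACTAAC (0 of 59 on each side). With no pair of peak and window that differed, the exact McNemar test had nothing to compare (p = 1).

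The share of U6 copies with a peak was highest among those closest to U6. Identity, the percentage of the bases of RNU6-1 matched in the alignment, had a median of 96.3% (quartiles 90.7 and 99.1) for the 37 copies with a peak and of 81.3% (76.6 and 86) for the 1296 without. Of the 45 copies with an identity of 95% or more, 23 had a peak (51.1%, 37 to 65%). The share was 5 of 77 (6.49%, 2.81 to 14.3%) from 90 to 95%, 7 of 343 (2.04%, 0.992 to 4.15%) from 85 to 90% and 0 of 357 from 80 to 85%, and below 80% single copies had a peak (RNU6-70P and RNU6-671P). RNU6-671P is annotated with 70 bases only, which lowers its identity to 65.4%, but its first 50 bases are those of U6.

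**Figure D3:**
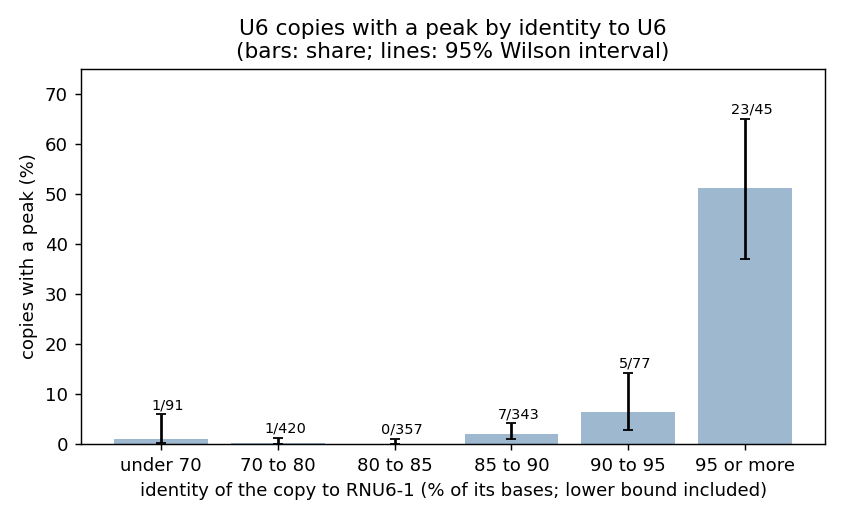
Share of annotated U6 copies with a peak (bars, %, with 95% Wilson intervals) by identity to RNU6-1 (% of its bases), with the number of copies above each bar. The share is 51.1% at an identity of 95% or more and at most 6.49% in every lower class.

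Both parts of the RNA were closer to U6 in copies with a peak. Over bases 1 to 34 of U6, the median identity was 100% in copies with a peak and 85.3% in those without, and 19 of 37 and 8 of 1296 were identical to RNU6-1 there. Over bases 35 to 107 the medians were 95.9% and 81.5%.

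ACTAAA was also common in U6 copies without a peak. It was present in the first 60 bases of 795 copies, of which 35 had a peak (4.4%, 3.18 to 6.06%), and absent from 538, of which 2 did (0.372%, 0.102 to 1.35%). Copies with the motif are closer to U6 as a whole. Within the copies of 85 to 95% identity the shares were 11 of 329 (3.34%, 1.88 to 5.89%) with the motif and 1 of 91 (1.1%, 0.194 to 5.96%) without, and their intervals overlapped. That 1 copy was RNU6-23P, with an identity of 92.5% and a peak of height 398. At 95% or more 2 copies lacked the motif, and 1 of them, RNU6-49P, had a peak of height 54.

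Copies that are identical at the 5′ end nevertheless had separate peaks. The first 50 bases were the same as in RNU6-1 in 21 annotated copies, and 15 of these had a peak (71.4%, 50 to 86.2%), with a median height of 118 (range 32 to 1445). The remaining 22 peaks lay on copies with at least 1 difference in this stretch, with a median height of 102.5 (16 to 42903).

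The 3′ edge of the peak differed between the 2 kinds of copies. In the 15 identical copies it had a median at base 34 (range 33 to 37), and 14 of 15 peaks ended at bases 33 to 35 (93.3%, 70.2 to 98.8%). In the 22 copies with a difference the median was base 37.5 (34 to 107), and 2 of 22 ended at bases 33 to 35 (9.09%, 2.53 to 27.8%). In the authors' pileup each read was moved 15 nt upstream and extended to 50 nt. An edge taken straight from it would lie 35 nt past a read start, and would not be the end of a fragment. The deposited U6 peaks had a median width of 42 nt, less than 1 extended read. Whether their edges were changed after the pileup was not tested, and no read start is derived from them.

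**Figure D4:**
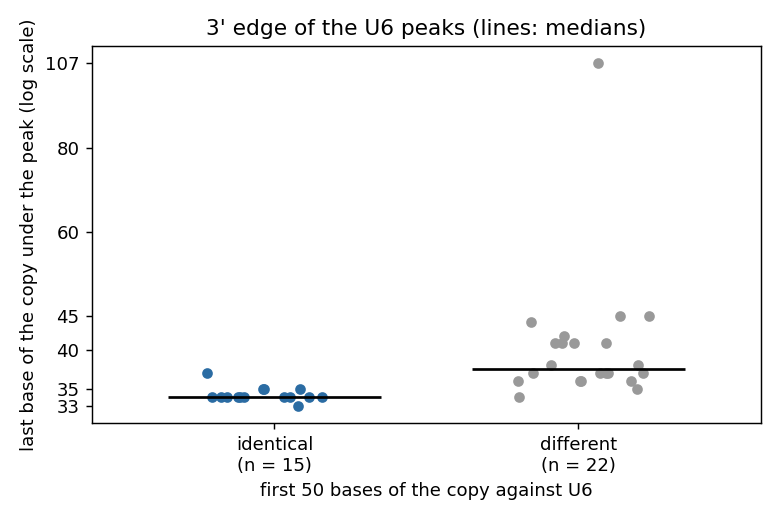
Last base of each U6 copy under its peak (points, log axis, in bases from the 5′ end) for copies whose first 50 bases are identical to U6 (n = 15) or different (n = 22), with medians as lines. The identical copies lie between bases 33 and 37, and the others between 34 and 107.

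The deposited peaks came from reads filtered on mapping quality, so the number of places where these stretches occur was counted. The first 50 bases of each identical copy had 21 exact matches in the genome, and with the base before base 1 included they had between 3 and 8. The first 50 bases of all 22 differing copies had 1 match. Among the 21 identical copies, the base before base 1 was A in 8, of which 3 had a peak, C in 5, of which 4 did, G in 5, all with a peak, and T in 3, all with a peak. The reads were not analysed here, and the part of the mapping filter in which copies had a peak, how tall it was and where it ended was not tested.

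U6 peaks stood alone along the genome. Another peak lay within 1000 nt on the same strand for 1 of 37 (2.7%, 0.479 to 13.8%), compared with 15179 of 23960 other nuclear peaks (63.4%, 62.7 to 64%, Fisher's exact test, two-sided, p = 5.05e-15, a comparison chosen after the values were seen). The median distance to the nearest peak was 271307 nt for U6 and 168 nt for the other nuclear peaks. The exception was RNU6-37P, in an intron of KIF1B, with another peak 8 nt away. On the same strand, 11 of 37 U6 peaks lay inside a protein-coding gene (29.7%, 17.5 to 45.8%), as did 20893 of 23960 other nuclear peaks (87.2%, 86.8 to 87.6%, Fisher's exact test, p = 1.35e-15). Of those 11 hosts, only KIF1B had another peak. How many of all 1333 annotated U6 copies lie in a protein-coding gene of their strand, or near a peak, was not computed. Neither comparison with the other nuclear peaks therefore sets copies with a peak apart from other U6 copies. The tallest nuclear peak, on RNU6-48P, was in an intron of TMEM222 and its nearest neighbour was 326168 nt away. The second tallest, on RNU6-1330P, overlapped an exon of NSA2 on the same strand. For U6 copies inside a host gene, position does not tell signal from the copy apart from signal from the host's RNA.

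Of the 22 peaks on the other families, 10 had another peak within 1000 nt (45.5%, 26.9 to 65.3%), which was not shown to differ from the other nuclear peaks (Fisher's exact test, p = 0.119), and 12 lay inside a protein-coding gene on the same strand (54.5%, 34.7 to 73.1%), a share below that of the other nuclear peaks (87.2%, Fisher's exact test, p = 0.000177). All 12 of these were miRNA, Y RNA, 7SK, 7SL or 5S copies, and for 11 of the 12 the host held further peaks. By position, signal from such a copy and signal from the host's pre-mRNA cannot be told apart. For these families too, the share of all annotated copies inside a protein-coding gene was not computed.

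The 3 peaks on other U snRNAs were all on U2 copies, none of which had a host gene. RNU2-61P had a height of 573, RNU2-64P of 257 and RNU2-36P of 35, and their identities to the U2 copy RNU2-2P were 87.4%, 88.5% and 90.6%. The first 2 peaks covered nearly the same part of the RNA, bases 59 to 125 and 68 to 115 of 191, with summits at bases 104 and 107. They shared a stretch of 20 nt without a change, given in capitals. The third covered bases 28 to 65, a part that includes GTAGTA (bases 33 to 38, in capitals), the segment of U2 that pairs with the branch point.
RNU2-61P (hg19, chr6:89773285-89773351, minus strand): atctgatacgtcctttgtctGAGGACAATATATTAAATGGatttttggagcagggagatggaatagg
RNU2-64P (chr3:73160210-73160257, plus strand): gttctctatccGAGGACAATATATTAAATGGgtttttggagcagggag
RNU2-36P (chr9:89037979-89038016, minus strand): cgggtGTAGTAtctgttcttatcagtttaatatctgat
In contrast to U6, the U2 peaks were thus inside the RNA and none reached its first base.

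Y RNA peaks were on the functional RNY4 (height 62) and on the copy RNY4P7 (height 26), which lies in an intron of WDR33. Both covered the 5′ part of the RNA, bases 1 to 44 and 1 to 41 of 96. The peaks shared 33 nt, given in capitals.
RNY4 (chr7:148660404-148660450, plus strand): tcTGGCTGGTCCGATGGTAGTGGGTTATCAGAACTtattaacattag
RNY4P7 (chr2:128556532-128556619, minus strand): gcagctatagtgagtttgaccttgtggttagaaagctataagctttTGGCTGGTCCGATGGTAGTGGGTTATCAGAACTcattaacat
The peak on RNY4P7 began 47 nt before the copy and had its summit at base 5, whereas that on RNY4 began 3 nt before it with a summit at base 27. WDR33 had 15 further peaks, the nearest 785 nt away, and the peak nearest to RNY4 was 236890 nt away.

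The peaks on 7SK and 7SL copies had the heights of ordinary peaks of the list. RN7SKP291 and RN7SKP79 each had a height of 22, and RN7SKP255 and RN7SKP296 each had one of 20. RN7SKP291 and RN7SKP79 overlapped on 7SK (bases 63 to 101 and 38 to 96 of 331), while RN7SKP255 covered bases 1 to 35 and RN7SKP296 bases 113 to 162. RN7SL381P (height 22) and RN7SL648P (height 20) covered bases 124 to 191 and 176 to 229 of 297. No base of 7SK was common to all 4 of its peaks, and the 2 peaks on 7SL overlapped at bases 176 to 191. The overlapping pair on 7SK is shown with the longest stretch shared by both peaks, 30 nt, in capitals.
RN7SKP291 (chr1:55842423-55842461, minus strand): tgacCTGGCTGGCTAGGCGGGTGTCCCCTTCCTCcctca
RN7SKP79 (chr5:6848480-6848538, minus strand): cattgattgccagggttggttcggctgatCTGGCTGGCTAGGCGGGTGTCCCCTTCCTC
The 2 7SL copies lie in introns of transcripts with other peaks, RN7SL381P in GSE1 (9 others) and RN7SL648P in the long noncoding RNA FTX (78 others). Of the 7SK copies, only RN7SKP296, in IL1RAP, has a protein-coding host.

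**Figure D5:**
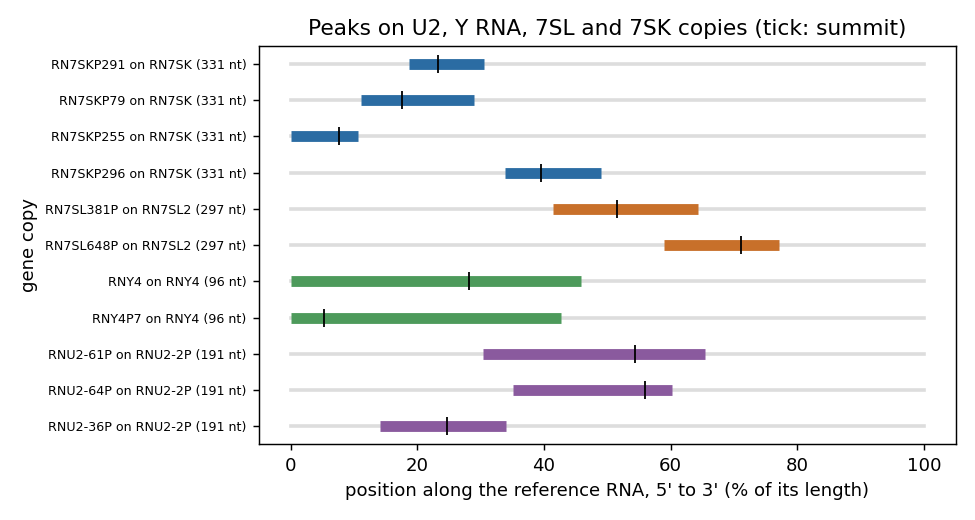
Stretch covered by each peak (coloured bars, with the summit as a tick) along the reference RNA of its family, in % of its length from 5′ to 3′, for the 3 U2, 2 Y RNA, 2 7SL and 4 7SK copies with a peak. The 2 Y RNA bars start at the 5′ end, and the U2 and 7SL bars lie inside the RNA.

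Peaks on miRNA genes numbered 9 on 7 genes. MIR4440, in an intron of HDAC4, had the tallest, with a height of 231 across all 98 bases of the hairpin. MIR7-1 followed, with 2 neighbouring peaks of heights 76 and 49, and the others were on AC068020.1 (29), MIR4472-2 (24), AL691523.1 (19), MIR1296 (14) and AC118278.1 (14 and 13). MIR7-1 is made from the transcript of HNRNPK, which held 8 other peaks for each of these, the neighbour included. The 2 peaks divided the hairpin between them, bases 1 to 54 and 56 to 110, with 1 nt free in between. The first contained all 24 nt of miR-7-5p, the arm that acts as miR-7, and the second all 22 nt of miR-7-1-3p. The peaks are shown with the mature miRNA in capitals, followed by the mature miRNAs with bases 2 to 8, the seed, in capitals (RefSeq, GRCh38.p14).
MIR7-1, first peak (chr9:86584719-86584784, minus strand): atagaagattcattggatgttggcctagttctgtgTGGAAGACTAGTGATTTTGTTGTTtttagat
MIR7-1, second peak (chr9:86584659-86584717, minus strand): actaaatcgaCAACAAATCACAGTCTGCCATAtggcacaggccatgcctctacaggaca
miR-7-5p: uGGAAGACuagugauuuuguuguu
miR-7-1-3p: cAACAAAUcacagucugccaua
miR-4440: uGUCGUGGggcuugcuggcuug
miR-1296-3p: gAGUGGGGcuucgacccuaacc
The second MIR7-1 peak opened with ACTAAA and was the only one of the 22 peaks on the other small RNA families with that motif. The 4 seeds differ from each other. The mature miR-4440 and miR-1296-3p were also fully inside the peaks on their genes. Of the 7 genes, 3 were matched by symbol in the RefSeq table.

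The only rRNA copy with peaks was RNA5SP217, a 5S pseudogene with an identity of 61.3% to RNA5S1, in an intron of ECHDC1. Its 2 peaks had heights of 23 and 8, and the host held 8 other peaks for each, the second of the pair included.

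Peaks on the opposite strand of the same genes served as a comparison. With the same 10 nt, 12 peaks lay antisense to a small RNA gene and 59 on its strand (exact binomial test, two-sided, p = 1.35e-08). On U6 there were 37 peaks on the strand and 1 opposite (exact binomial test, p = 2.84e-10). The other families had 22 and 11 (exact binomial test, p = 0.0801), so that an excess on the gene's strand was not detectable for them taken as a whole. The tallest antisense peak (384) was opposite RNA5SP352, and 5 of the 12 were opposite 5S pseudogenes and 3 opposite snoRNA entries. Copies outside protein-coding genes on both strands had 33 peaks on their strand and 3 opposite (exact binomial test, p = 2.27e-07).

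The rule's minimum decided few cases. AC068020.1, with 12 nt of overlap, was the member closest to it, and MIR641 (8 nt), MIRLET7I (4 nt), MIR337 (2 nt), RNU6-779P (2 nt) and 1 unnamed Y RNA copy (1 nt) fell short, with heights of 14 to 24. Most members reached beyond the annotated gene, 45 of 59 (76.3%, 64 to 85.3%), 41 of them before base 1, and 85.2% of all bases in the 59 peaks were inside a small RNA gene.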

How the data were processed

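HITS-CLIP reads of QKI-5 from mesHMLE cells were trimmed by the authors with cutadapt 1.3, aligned to hg19 with TopHat2 2.0.10, collapsed by barcode, filtered on mapping quality, pooled over the immunoprecipitations and called per strand against input with MACS2 2.1.1.20160309. The deposited list gives the height of each of 24037 peaks as a signal, with no scaling stated, and the summit. It holds no depth and no value per library. Here 18 mitochondrial peaks were left out, and overlaps with GENCODE release 44 on hg19, motifs, alignments (Biopython 1.88) and tests (SciPy 1.17.1) were computed from the peaks, after the functions were tested on simulated data. Fisher's exact tests were two-sided, with Benjamini-Hochberg adjustment over 3 motifs. Samples were grouped by their labels, but pooling left no comparison between groups. Named genes were the 5 tallest U6 peaks, the 3 tallest of every other family, and the functional genes of each. RNU6-431P, RNU6-23P, RNU6-49P, RNU6-70P, the copies just short of the overlap rule, and the 7SK and miRNA genes past the third were named after their values were seen, as were antisense and host genes. The members, lists and tests were chosen with earlier results of these data known. Some U6 and 7SL sequences are not reported here.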

Additional observations from a re-analysis of the deposited data

How the results depend on the processing

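Of 51 values under another setting, 49 kept their direction and side of the threshold, or stayed within the counting interval of the value reported. The settings were an overlap of 1 nt, of at least 50% of the peak or of the summit, and only peaks of height 23 or more. That height is the median of the nuclear peaks. Further settings were no miRNA genes, merged or widened peaks, other window distances, copies outside protein-coding genes, the peak's centre, and copies of at least 80% identity. The share of member peaks on U6 rose from 62.7% to 76.6% with that height limit and to 74% without miRNA genes. No peaks overlapped or touched, so merging left the motif values as they were. With windows 200 or 1000 nt away the McNemar test again had at most 1 pair that differed. No paired analysis was possible because the libraries were pooled before peaks were called, and for the same reason no library could be left out in turn. Depth is unknown and reads were filtered on mapping quality, so a gene without a peak is not shown to be unbound.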
